A study of Mus musculus with 7 samples.

Results

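Chemokine ligand and receptor genes were examined in hearts of adult female mice in which the chromatin remodelling ATPases Brg1 and Brm were knocked out. The genes were taken by name, each being on the array a numbered Ccl, Cxcl, Ccr or Cxcr gene, or Cx3cl1, Cx3cr1 or Xcl1. Those reported number 52 of the 37325 gene names on the array, 36 ligands and 16 receptors, and 35 of them were bright enough to be tested among 22971 genes. RNA was measured on 7 one-colour Agilent arrays, 3 of a Wild Type group (Wild Type_181, Wild Type_183, Wild Type_189) and 4 of a Mutant group (Mutant_175, Mutant_182, Mutant_187, Mutant_188), where the design text speaks of 4 in each group. Wild Type samples are labelled NTg + Tamoxifen and Mutant samples Tg + Tamoxifen, so the drug was given to both groups. The design text states that tamoxifen deleted Brg1 through MHC Cre-ERT, a Cre recombinase under a cardiac myosin heavy chain promoter, in mice already null for Brm. The deletion was thus aimed at cardiomyocytes, and the labels name that cell type, while the source is given as heart and the RNA kit is one for animal tissue. The sources used here do not say whether the Wild Type mice had Brm. No label ties an array to its own mouse, and p-values reflect only how far these samples spread. In such bulk RNA, a change in the number of cells of a type and a change in RNA per cell cannot be told apart.

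Chemokines are small secreted proteins that draw leukocytes along a concentration gradient, and they are named CC, CXC, XC or CX3C by the spacing of their first cysteines. Their receptors are G protein coupled receptors on the responding cells, and many ligands share a receptor or bind several. In the heart, the ligands of CCR2 are best known for bringing in monocytes after injury, and CXCL12 for holding cells that carry CXCR4. Many ligand genes lie side by side in clusters that arose by duplication.

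Smarca4, the gene of Brg1, was lower in the Mutant arrays by a log2 change of -1.87 (SE 0.29, adjusted p = 0.00209), while the probe of Smarca2, the gene of Brm, differed by 0.08 (SE 0.11, adjusted p = 0.586). The sources used here do not place either probe relative to the deleted sequence, so the Smarca2 probe checks no label. Signals are given below as relative signals, that is, the probe's signal as a percentage of the 75th percentile of its own array. They compare arrays for 1 gene and do not rank genes. Array values are listed in the order in which the arrays were named above. The 75th percentile itself was 955 to 1079 signal units on the Wild Type arrays and 1245 to 1708 on the Mutant arrays. Between 28 and 33 of the 52 genes were well above background on a Wild Type array, and between 34 and 36 on a Mutant array. Of 10 cardiomyocyte marker genes, 7 fell and 1 rose, where 25.8% of all genes fell and 16.3% rose. Their summed relative signal was 467700 to 512500% in Wild Type and 260300 to 319400% in Mutant arrays. The fall depended on the scaling. Only 3 of these markers fell with quantile normalization, with normexp and quantile normalization, and with scaling to spike-in RNA. Their median log2 change was then -0.18, -0.21 and -0.20, against -0.77 with the main scaling. Of all genes 22.8, 22.9 and 7.44% fell under those settings. Array Mutant_175 stood apart from the other Mutant arrays for these genes, with a median shift from the Wild Type mean of 0.46 on the log2 scale against 1.43, 1.53 and 1.15. It held the lowest Mutant value for 25 of the 35 tested genes. Where a call, a direction or a size turned on it, the value without it is given too.

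Of the 35 tested genes, 19 were higher in the Mutant hearts and 2 were lower at an adjusted p below 0.05, and 14 passed in neither direction. Over all 22971 genes, 16.3% were higher, 25.8% lower and 42.1% called in either direction. The higher genes were 13 of 27 tested ligands and 6 of 8 tested receptors, and no receptor was lower. In 18 of the 19 the fitted change was at least 2-fold, where 8.47% of all genes were higher by that much. Neither of the 2 lower genes fell by 2-fold, as 9.99% of all genes did. All 4 Mutant arrays lay above all 3 Wild Type arrays for 19 genes and below them for 4, against 19.6% and 31.6% of all genes. The median log2 change of the 35 genes was 1.35 and that of all genes -0.12. Scaling to spike-in RNA moved the median of all genes to 0.44 and raised the count of higher chemokine genes to 24, while the share of all genes called higher rose to 37.2%. The 35 tested genes passed a filter for brightness on at least 3 arrays, so genes detected only in the Mutant arrays could enter through being high there. That was so for Cxcl13 and Cxcl5, which were well above background on no Wild Type array. Ccl3, Ccr2, Ccr6 and Cxcl2 were so on 1 Wild Type array and Ccl4 and Cxcr3 on 2, so these too needed Mutant arrays to pass. The p-values of all these genes are therefore no separate support, and their calls add to the counts above. With a filter over all 7 arrays, 26 genes were tested and 14 were higher, where 17.4% of all genes were.

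**Figure D1:**
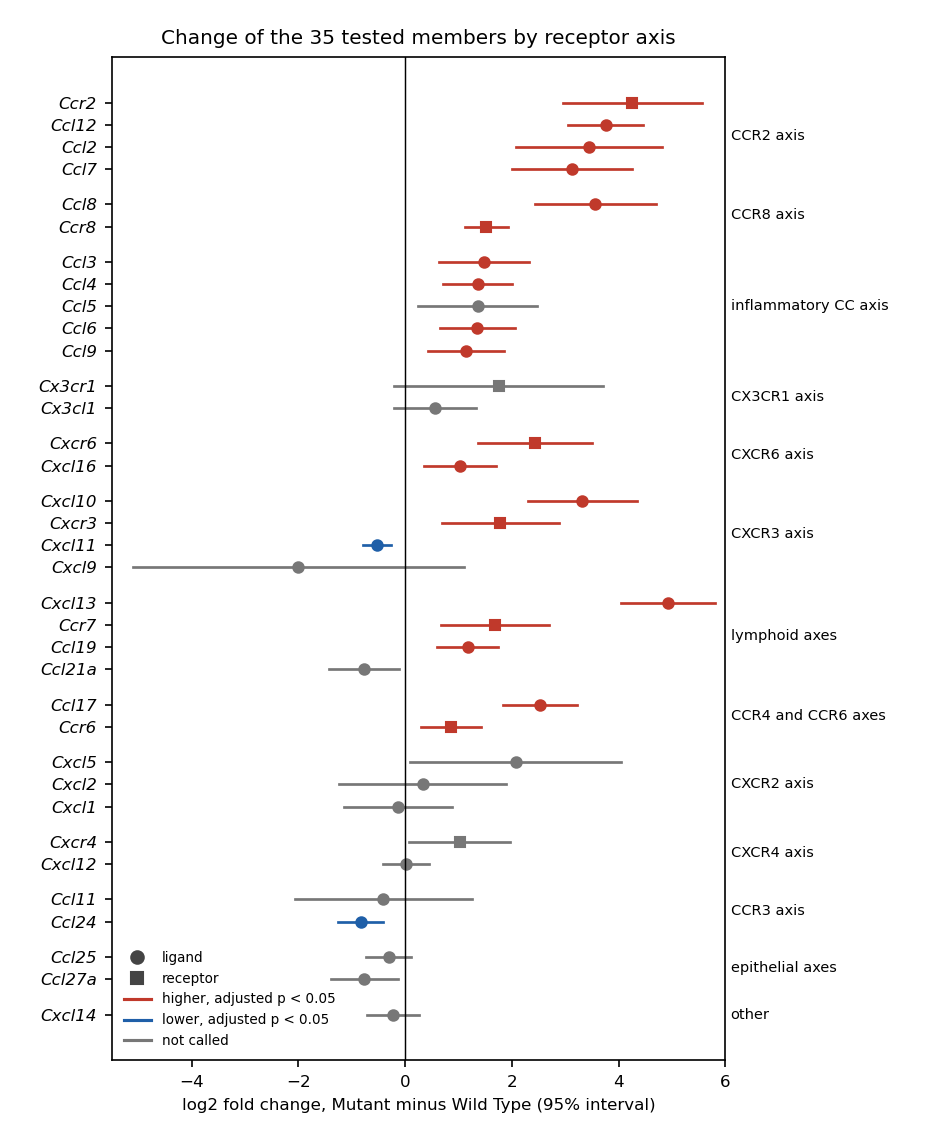
Log2 fold change, Mutant minus Wild Type, of each of the 35 tested genes with its 95% interval, grouped by the main receptor (circles ligands, squares receptors; red higher, blue lower, grey not called). The 4 genes of the CCR2 axis lie between 3.13 and 4.25, and the 3 tested ligands of CXCR2 are all grey.

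The CCR2 axis rose as a whole: the receptor and all 3 of its monocyte-attracting ligands in the set were higher. Ccr2, the receptor that lets classical monocytes leave the marrow and enter tissue, had relative signals of 2.42, 1.59 and 2.57% in Wild Type and 15.4, 87.5, 60.5 and 34.6% in Mutant arrays. Every Mutant array was above every Wild Type array, of which 1 was well above background. The log2 change was 4.25 (SE 0.56, adjusted p = 0.000988). With the Wild Type signals near background its size is uncertain, and it ran from 2.24 to 4.82 over the other settings. Ccr2 passed the filter for brightness only with the Mutant arrays, so its p is no separate support. Ccl2, the best known CCR2 ligand, stood at 54.9, 56.9 and 41.2% in Wild Type and at 181.001, 534, 1247 and 757% in Mutant arrays. The groups were far apart even at the lowest Mutant value, in Mutant_175, and the log2 change was 3.45 (SE 0.59, adjusted p = 0.00317). Ccl7, a close relative of Ccl2, gave 7.68, 9.57 and 7.32% against 29.9, 63.7, 91.5 and 145.5%, a log2 change of 3.13 (SE 0.48, adjusted p = 0.00205). Ccl12, a further mouse CCR2 ligand, gave 7.04, 4.40 and 4.99% against 53.7, 119.6, 73.4 and 58.9%. The groups were well apart, and the log2 change was 3.76 (SE 0.30, adjusted p = 0.000124).

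Ccl8, which in the mouse signals through CCR8, lies beside Ccl12 and changed by a like amount. It measured 66.4, 73.8 and 49.5% in Wild Type and 276, 1149, 1029 and 914% in Mutant arrays. The Mutant_175 value was the low one, yet still above all Wild Type arrays, and the log2 change was 3.57 (SE 0.49, adjusted p = 0.00119). Ccr8, a receptor of regulatory and type 2 helper T cells, gave 19.4, 25.1 and 20.2% against 58.9, 57.7, 52.9 and 80.1%. Mutant_175 was not low for it, and the log2 change was 1.52 (SE 0.18, adjusted p = 0.000564). Ccl1, the other CCR8 ligand, was too dim to be tested.

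The proximal promoters of Ccl12 and Ccl8 are shown because these neighbours rose by the same order of size, with those of Cxcl13 and Cxcl10, which also rose, and of Cxcl1, which did not pass the test. Each is the 250 bases before the annotated start, from RefSeq (GRCm38.p6), on the strand of the gene, at chr11:82101595-82101844 (plus), chr11:82114935-82115184 (plus), chr5:95956689-95956938 (plus), chr5:92348890-92349139 (minus) and chr5:90890995-90891244 (plus). Capitals mark matches, on either strand, to any of 4 motifs, namely TATAAA (the TATA box), TGANTCA (AP-1), GGG and TTTCC with any 2 bases between them (NF-kB), and GAAA given both before and after any 2 bases (interferon response factors).
Ccl12: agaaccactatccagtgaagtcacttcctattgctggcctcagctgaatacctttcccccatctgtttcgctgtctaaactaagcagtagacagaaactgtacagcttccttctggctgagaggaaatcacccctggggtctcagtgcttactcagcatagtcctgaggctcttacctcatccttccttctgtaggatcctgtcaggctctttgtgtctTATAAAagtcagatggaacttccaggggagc
Ccl8: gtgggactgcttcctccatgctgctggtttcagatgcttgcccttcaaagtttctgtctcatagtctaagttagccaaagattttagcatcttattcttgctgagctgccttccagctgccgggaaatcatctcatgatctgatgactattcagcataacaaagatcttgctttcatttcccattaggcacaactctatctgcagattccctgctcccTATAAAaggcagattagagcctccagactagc
Cxcl13: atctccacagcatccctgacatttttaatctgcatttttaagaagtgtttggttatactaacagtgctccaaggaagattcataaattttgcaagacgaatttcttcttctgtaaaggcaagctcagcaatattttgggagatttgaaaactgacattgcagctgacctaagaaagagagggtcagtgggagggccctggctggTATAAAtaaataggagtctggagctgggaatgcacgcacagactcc
Cxcl10: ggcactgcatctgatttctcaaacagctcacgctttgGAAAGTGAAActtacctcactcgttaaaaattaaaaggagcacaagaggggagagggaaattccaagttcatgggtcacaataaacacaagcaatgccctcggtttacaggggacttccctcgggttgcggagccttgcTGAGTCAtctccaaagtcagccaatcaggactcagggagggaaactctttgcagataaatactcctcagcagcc
Cxcl1: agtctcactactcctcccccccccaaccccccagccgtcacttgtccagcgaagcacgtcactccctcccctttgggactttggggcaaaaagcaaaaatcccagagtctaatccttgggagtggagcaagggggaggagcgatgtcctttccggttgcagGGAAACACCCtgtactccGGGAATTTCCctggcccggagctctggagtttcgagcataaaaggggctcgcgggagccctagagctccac
The TATA box begins 31 bases before the start in Ccl12, 32 in Ccl8 and 46 in Cxcl13. Cxcl10 holds an interferon response match that begins 213 bases and an AP-1 match that begins 74 bases before the start, and Cxcl1 holds NF-kB matches that begin 89 and 71 bases before it. RefSeq windows were matched for 38 of the 52 genes, among them 14 of the genes that rose and 11 other tested genes.

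Over these 38 genes the NF-kB letters were found in 6 (Ccl9, Ccl20, Ccr3, Cxcl1, Cxcl2 and Cxcl3), where 1.41% of 32851 mouse promoters of the same length hold them. Only Ccl9 among those 6 rose, Cxcl1 and Cxcl2 did not pass the test, and the remaining 3 were not tested. The AP-1 letters were in 5 genes (Ccl9, Ccl27a, Ccr3, Ccr4 and Cxcl10), against 6.75% of all promoters, and the interferon response letters in 3 (Ccl19, Cxcl10 and Cxcl14), against 2.98%. The TATA letters were in 10 genes, against 12.4% of all promoters. Of these, Ccl8, Ccl9, Ccl12 and Cxcl13 rose and Ccl25, Cx3cl1, Cxcl9 and Cxcr4 did not pass. A match is a description of the letters, and no binding was measured. Only 1 form of each motif was searched, so a gene without a match may hold another form. The Cxcl10 window also holds gggaaattcc and ggggacttcc, which come close to the NF-kB letters without matching them. The count of genes with NF-kB letters therefore does not say which genes lack such sites.

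Along the chromosome the changes followed gene clusters only in part. Probe positions, on mouse build mm9 as the scanner files give them, place 35 of the 52 genes in 10 groups with neighbours under 500 kb apart. The cluster at chr11:81850650-81990510 holds Ccl2, Ccl7, Ccl11, Ccl12, Ccl8 and Ccl1 in that order, and 4 of its 5 tested genes rose. The exception, Ccl11, lies between Ccl7 and Ccl12, which gave log2 changes of 3.13 and 3.76 beside its -0.41 (adjusted p = 0.673). A second cluster at chr11:83339296-83478111 holds Ccl5, Ccl9, Ccl6, Ccl3 and Ccl4, and again 4 of 5 rose, each by 1.14 to 1.48. In the CXC cluster at chr5:91190490-91334593 (Cxcl5, Cxcl3, Cxcl15, Cxcl1 and Cxcl2), none of 3 tested genes passed. The receptor genes Ccr9, Cxcr6, Ccr1, Ccr3 and Ccr2 lie at chr9:123690334-124023007, and both tested ones, Cxcr6 and Ccr2, rose.

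**Figure D2:**
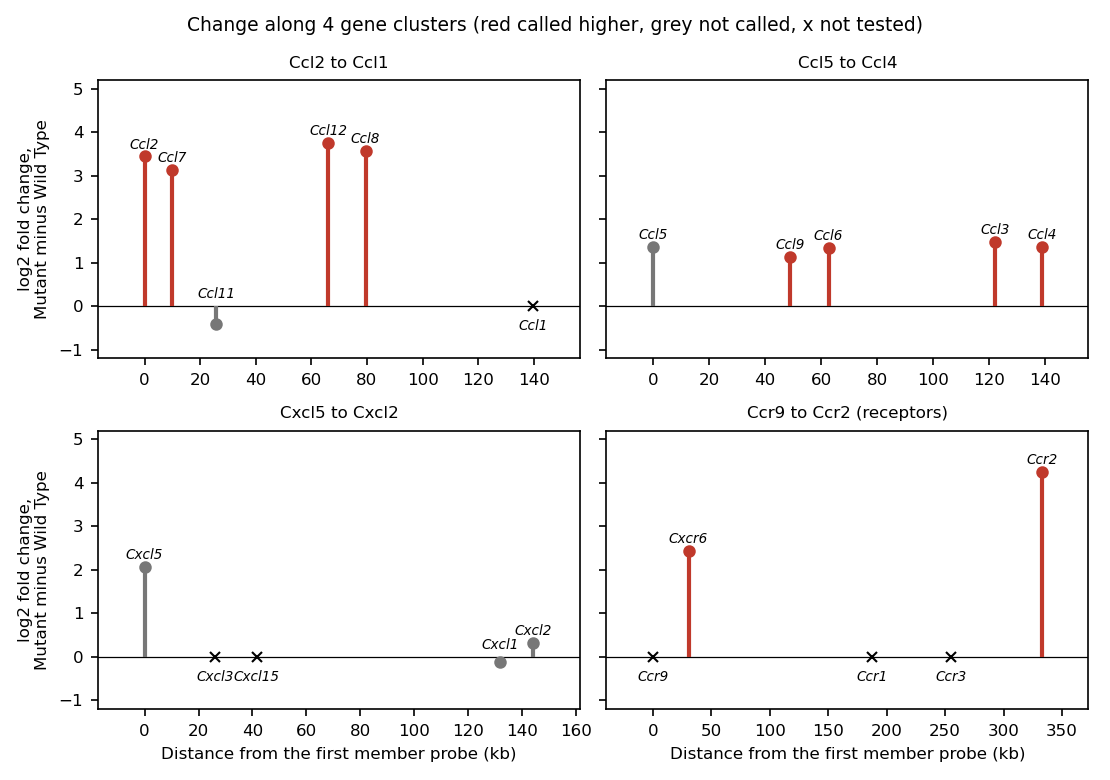
Log2 fold change, Mutant minus Wild Type, of the genes in 4 chromosomal clusters against the distance in kb of each probe from the first (red higher, grey not called, crosses not tested). Ccl11, at 25.7 kb, lies below 0 between Ccl7 and Ccl12.

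The inflammatory CC ligands encoded in the second cluster on chromosome 11 rose by smaller amounts, Ccl5 excepted. Ccl6, a macrophage product of rodents that binds CCR1, had relative signals of 493, 369 and 486% in Wild Type and 695, 1250, 1767 and 1083% in Mutant arrays. Its log2 change was 1.35 (SE 0.30, adjusted p = 0.00964), with no overlap of the groups. Ccl9, its neighbour and also a CCR1 ligand, gave 203, 192 and 226% against 283, 503, 754 and 394%, a log2 change of 1.14 (SE 0.31, adjusted p = 0.021). Its call was lost, at adjusted p values of 0.0517 to 0.072, when any Wild Type array or Mutant_182 was left out.

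Ccl3 and Ccl4, which attract macrophages and T cells, were dim and passed the filter for brightness only with the Mutant arrays. Ccl3 gave 1.98, 3.28 and 1.77% in Wild Type, where 1 array was well above background, and 11.6, 5.77, 5.22 and 4.50% in Mutant arrays. Here Mutant_175 was the highest, and the log2 change was 1.48 (SE 0.36, adjusted p = 0.0141). Without Wild Type_181 or Wild Type_189 its adjusted p was 0.0512 and 0.0562. Ccl4 gave 2.18, 3.90 and 3.07% against 5.09, 9.84, 8.06 and 8.29%, a log2 change of 1.36 (SE 0.27, adjusted p = 0.00645), with 2 Wild Type arrays well above background. Its other kept probe gave a like change, as the plot of probes shows.

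Ccl5, a ligand of CCR1 made by T cells and platelets, measured 86.2, 46.7 and 62.6% in Wild Type and 71.5, 244, 281 and 140% in Mutant arrays. Mutant_175 fell within the Wild Type range and the other 3 lay above it. The log2 change of 1.36 (95% interval 0.25 to 2.47) missed the threshold at adjusted p = 0.0536, and was 1.75 with adjusted p = 0.00517 without Mutant_175.

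Ccr1, the receptor shared by Ccl3, Ccl5, Ccl6 and Ccl9, was too dim to be tested.

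**Figure D3:**
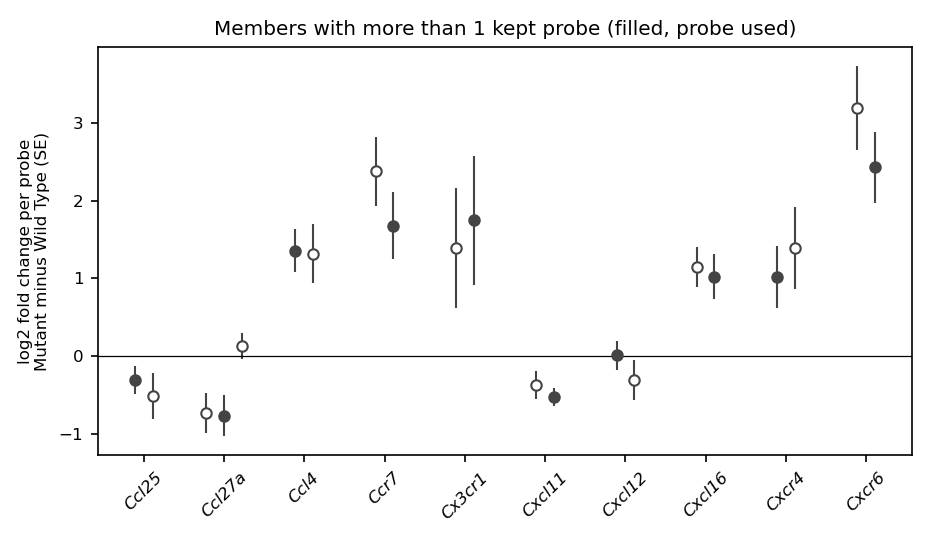
Log2 fold change, Mutant minus Wild Type, of each kept probe of the 10 genes with more than 1 kept probe, with its standard error (filled circles, the probe used). The probes of Ccl4, Cxcl16 and Cxcr6 lie on the same side of 0, and those of Ccl27a on both sides.

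Of the CXC ligands, Cxcl13 and Cxcl10 rose most. Cxcl13, the B cell attractant that shapes lymphoid follicles, gave 0.708, 2.18 and 1.74% in Wild Type, on none of which it was well above background. The Mutant arrays gave 40.8, 39.3, 55.4 and 34.8%, close together and with Mutant_175 among them. With the main scaling the Mutant level was at least 15.5-fold higher. That bound was set against the lowest signal that counts as well above background on each Wild Type array. The adjusted p of 0.000105 belongs to the fit on the signals as measured, not to the bound. Over the other settings the fitted log2 change ran from 2.20 to 5.48. Cxcl13 passed the filter for brightness only through the Mutant arrays, so that p is no separate support. Its receptor gene Cxcr5 was too dim to be tested, and none of the 3 tested B cell markers of 5 listed passed, or 1 higher and 1 lower without Mutant_175. The summed relative signal of those markers was 38.0 to 39.6% in Wild Type and 35.98 to 78.2% in Mutant arrays, and their part in the Cxcl13 result was not tested.

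Cxcl10, an interferon-induced ligand of CXCR3, measured 12.9, 5.39 and 5.47% in Wild Type and 38.0, 109.6, 82.6 and 80.0% in Mutant arrays. The groups did not overlap and the log2 change was 3.32 (SE 0.44, adjusted p = 0.000993). Cxcr3, the receptor on activated T and NK cells, gave 5.21, 1.75 and 3.84% against 7.80, 18.4, 15.4 and 7.33%, with 2 Wild Type arrays well above background. Its log2 change was 1.79 (SE 0.47, adjusted p = 0.0186), and the adjusted p was 0.0592 without Wild Type_183. Cxcr3 passed the filter for brightness only with the Mutant arrays.

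The other CXCR3 ligands, which flank Cxcl10 within 36.4 kb at chr5:92752191-92788626, did not follow it. Cxcl9 gave 58.8, 44.0 and 52.1% in Wild Type and 0.764, 45.8, 29.2 and 26.3% in Mutant arrays, of which Mutant_175 was not well above background. The log2 change of -2.001 had a wide 95% interval, -5.10 to 1.10 (adjusted p = 0.26). Without Mutant_175 it was -0.65 (SE 0.23, adjusted p = 0.0575). The Cxcl11 probe gave 32156, 36285 and 37199% against 25986, 24906, 23098 and 23761%, a log2 change of -0.53 (SE 0.11, adjusted p = 0.00737) that was 0.04 under spike-in scaling. This probe was among the brightest 0.334% of all probes, and a 30-base stretch of it is shown because most of these letters recur in other probes.
Cxcl11 probe: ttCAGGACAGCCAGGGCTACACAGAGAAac
The capitals, bases 14 to 39 of the 60-base probe, belong to the B1 family of rodent short repeats and are also found in the probes of 3 other genes on the same strand. Those 3 probes had median signals of 353213 to 446121, against 240605 for this one, and the part of the shared letters in the Cxcl11 signal was not tested. The second Cxcl11 probe lacks the run and gave 617, 821 and 743% in Wild Type and 524, 640, 438 and 661% in Mutant arrays. Its groups overlapped, and its log2 change was -0.37 (SE 0.18, adjusted p = 0.147).

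The CXCL16 pair rose together. Cxcr6, the receptor of tissue-resident T and NKT cells, measured 7.31, 7.07 and 7.50% in Wild Type and 17.0, 60.8, 69.5 and 33.6% in Mutant arrays. The tight Wild Type values lay below the lowest Mutant value, in Mutant_175, and the log2 change was 2.43 (SE 0.46, adjusted p = 0.0049). Cxcl16, its only ligand and a membrane-bound scavenger receptor on macrophages, gave 45.3, 47.1 and 44.6% against 55.01, 130.5, 120.7 and 85.8%. Its log2 change was 1.02 (SE 0.29, adjusted p = 0.0252), and the call was lost without any 1 Wild Type array, Mutant_182 or Mutant_187, at adjusted p values of 0.0535 to 0.0753.

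**Figure D4:**
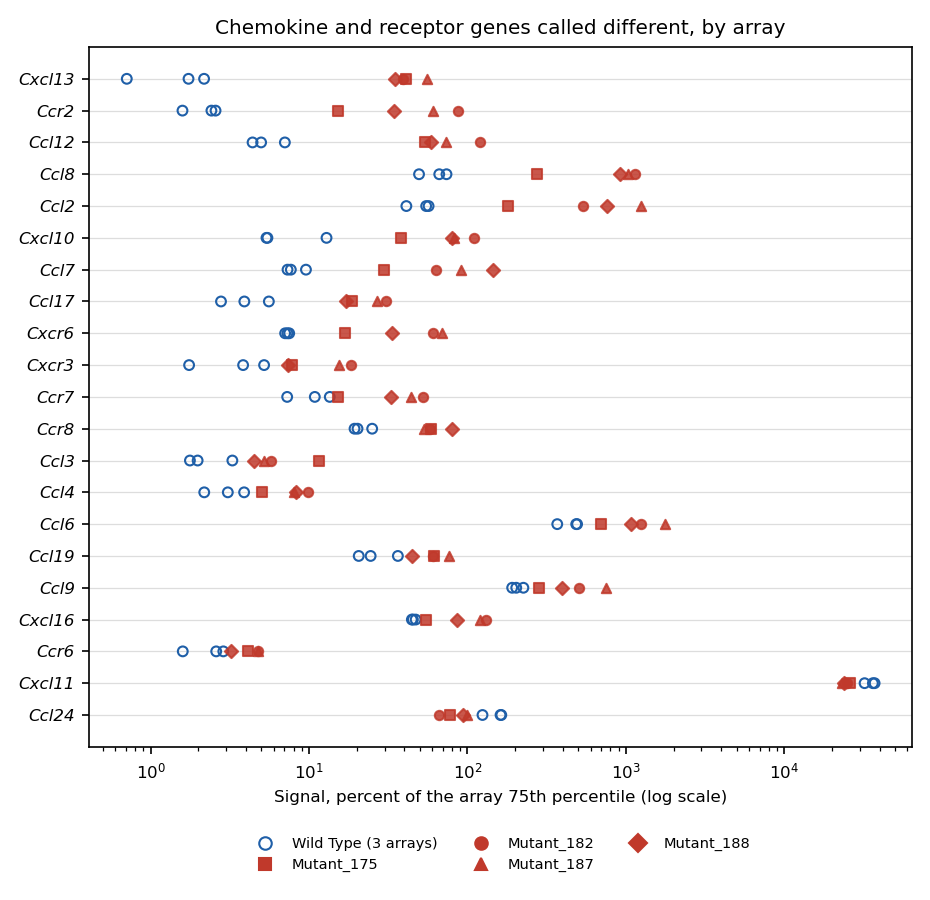
Relative signal, as a percentage of the array's 75th percentile on a log axis, of the 21 called genes on each array (open circles Wild Type, red symbols the 4 Mutant arrays). No gene shown has overlapping groups, and the squares of Mutant_175 are the lowest red symbols for 12 of the 19 genes that rose.

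Genes of dendritic cell and lymphocyte traffic to lymphoid tissue rose as well. Ccr7, the receptor that guides dendritic cells and naive T cells to lymph nodes, gave 13.5, 10.9 and 7.28% in Wild Type and 15.3, 52.4, 44.0 and 33.0% in Mutant arrays. Mutant_175 was just above the highest Wild Type array, and the log2 change was 1.68 (SE 0.43, adjusted p = 0.017). The adjusted p was 0.0653 without Wild Type_189. Ccl19, a CCR7 ligand of lymphoid stroma, gave 36.4, 24.5 and 20.6% against 61.3, 60.4, 76.3 and 44.4%, a log2 change of 1.17 (SE 0.25, adjusted p = 0.00758).

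Ccl21a, a further CCR7 ligand and the chromosomal neighbour of Ccl19, took the opposite side. It gave 988, 1130 and 775% in Wild Type and 351, 723, 725 and 527% in Mutant arrays, without overlap. The log2 change was -0.77 (95% interval -1.42 to -0.12) and missed the threshold at adjusted p = 0.0591. The probe is also assigned to Gm10591, Gm13304 and Gm1987, so its signal cannot be given to 1 copy.

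Ccl17, a CCR4 ligand made by dendritic cells, gave 3.91, 5.58 and 2.78% in Wild Type and 18.8, 30.6, 26.8 and 17.0% in Mutant arrays. The groups were well apart, with a log2 change of 2.53 (SE 0.29, adjusted p = 0.000586). Its receptor gene Ccr4 and the other CCR4 ligand, Ccl22, were too dim to be tested. Ccr6, a receptor of Th17 cells and B cells, was dim, at 1.60, 2.60 and 2.88% in Wild Type, where 1 array was well above background, and 4.09, 4.76, 4.75 and 3.22% in Mutant arrays. Its log2 change was 0.86 (SE 0.24, adjusted p = 0.0232), and without Wild Type_181, Mutant_182 or Mutant_187 its adjusted p was 0.0618, 0.0584 and 0.0502. Ccr6 passed the filter for brightness only with the Mutant arrays. Ccl20, the ligand of CCR6, was not tested.

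Neutrophil-attracting ligands of CXCR2 did not pass. Cxcl1 gave 65.3, 72.2 and 53.4% in Wild Type and 23.9, 73.3, 73.8 and 86.4% in Mutant arrays. Mutant_175 lay below all others and the remaining 3 just above the Wild Type range, and the log2 change was -0.13 (95% interval -1.14 to 0.89, adjusted p = 0.835). Without Mutant_175 it was 0.30 (adjusted p = 0.135). Cxcl5 was close to background on all Wild Type arrays, at 2.81, 2.62 and 2.22%, and on Mutant_175, at 1.79%, none of which was well above it, while the other Mutant arrays gave 15.4, 18.6 and 25.1%. The adjusted p was 0.0869 with all arrays and 0.000136 without Mutant_175. Cxcl5 passed the filter for brightness only through Mutant arrays, and Cxcl2 passed it only with them. Cxcl2 was dim, well above background on 1 Wild Type and 3 Mutant arrays, with a log2 change of 0.33 (adjusted p = 0.724), which was 0.98 (adjusted p = 0.0211) without Mutant_175. The receptor genes Cxcr1 and Cxcr2 were not tested.

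Neither gene of the fractalkine pair passed with all arrays. Cx3cr1, the receptor of patrolling monocytes and resident macrophages, measured 85.4, 41.5 and 82.5% in Wild Type and 41.4, 474, 438 and 289% in Mutant arrays. Mutant_175 was at the lowest Wild Type value, and the others were above all Wild Type arrays. The log2 change was 1.75 (95% interval -0.21 to 3.71, adjusted p = 0.131), and 2.56 (adjusted p = 0.00124) without Mutant_175. Its second kept probe was positive as well. Cx3cl1, the membrane-anchored ligand of endothelial cells and neurons, gave 206, 244 and 215% against 204, 357, 576 and 265%, a log2 change of 0.55 (95% interval -0.21 to 1.32, adjusted p = 0.211).

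Cxcl12, the stromal ligand that retains CXCR4-bearing cells, did not pass and had one of the narrower intervals. Its relative signals were 5209, 3939 and 4244% in Wild Type and 5121, 5159, 3383 and 4463% in Mutant arrays, which interleaved. The log2 change was 0.01 (95% interval -0.42 to 0.45, adjusted p = 0.965), and its sign differed between settings. Cxcr4, the receptor, gave 23.7, 24.7 and 21.0% against 20.8, 51.3, 68.5 and 65.5%. Only Mutant_175 lay with the Wild Type arrays, and the log2 change of 1.02 (adjusted p = 0.0773) became 1.41 (adjusted p = 0.00053) without it.

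**Figure D5:**
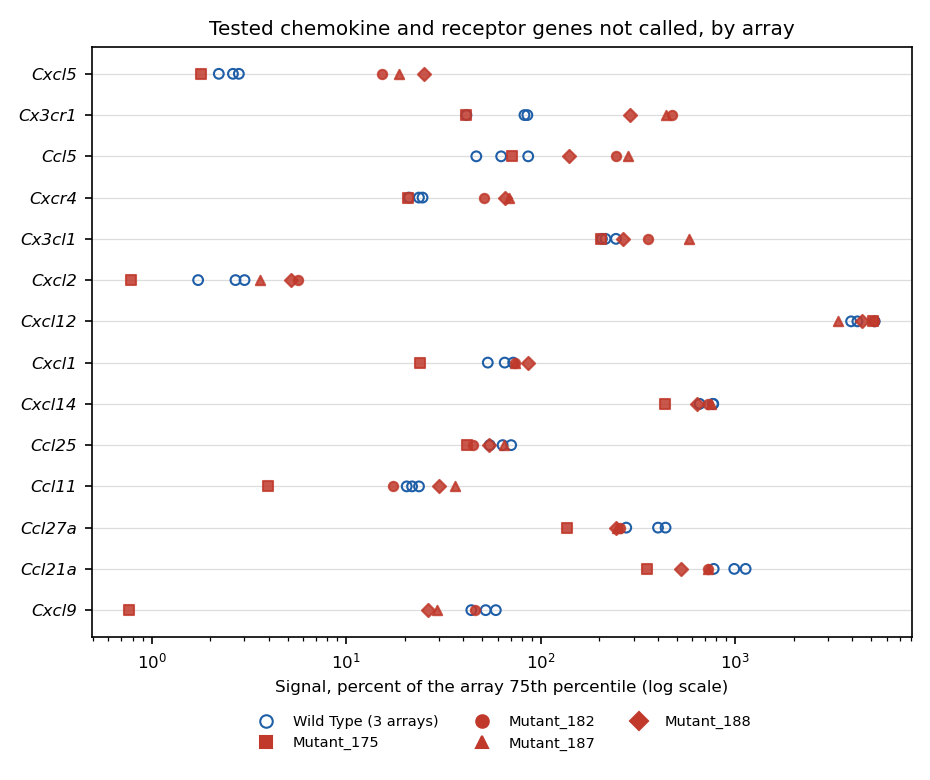
Relative signal, as a percentage of the array's 75th percentile on a log axis, of the 14 tested genes that were not called (open circles Wild Type, red symbols the 4 Mutant arrays). For Cxcl5, Cx3cr1, Ccl5 and Cxcr4 the square of Mutant_175 lies at or near the Wild Type circles while the other 3 Mutant arrays lie to the right.

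The eosinophil attractants, ligands of CCR3, were not higher in the Mutant arrays. Ccl24 gave 163.7, 161.9 and 124.5% in Wild Type and 78.2, 66.4, 99.8 and 93.6% in Mutant arrays, without overlap. It fell by 0.84 on the log2 scale (SE 0.18, adjusted p = 0.00884), and did not pass under spike-in scaling (-0.27, adjusted p = 0.32). Ccl11 gave 21.8, 23.7 and 20.5% against 3.95, 17.5, 36.2 and 30.0%, a log2 change of -0.41 (95% interval -2.06 to 1.25, adjusted p = 0.673) that was 0.28 (adjusted p = 0.414) without Mutant_175. Ccr3 and Ccl26 were not tested.

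Ligands made by epithelia gave no call. Ccl27a, the skin ligand of CCR10, measured 275, 401 and 438% in Wild Type and 136, 257, 247 and 243% in Mutant arrays. All Mutant arrays were lower, and the log2 change of -0.77 missed the threshold at adjusted p = 0.0544, passing it without Mutant_175 (-0.55, adjusted p = 0.047). Its probe is also assigned to Ccl27b, Gm13306 and Gm2506. Another kept probe of Ccl27a, also assigned to Ccl27b and Gm13306, gave -0.73 (adjusted p = 0.0571). The remaining kept probe, assigned to Ccl27a alone, gave 0.13, and it shares a run of 20 bases with 1 probe of another gene. Ccl25, the thymus and gut ligand of CCR9, gave 54.7, 63.7 and 70.5% against 41.6, 44.9, 64.5 and 54.2%, a log2 change of -0.31 (95% interval -0.73 to 0.11, adjusted p = 0.206). Cxcl14, an ancient ligand of uncertain receptor, gave 768, 656 and 771% against 433, 724, 752 and 639%, a log2 change of -0.23 (95% interval -0.71 to 0.25, adjusted p = 0.405) that was -0.05 without Mutant_175. No Ccl25 or Cxcl14 change passed the test, and both intervals include 0. The 17 genes too dim to be tested were Ccl1, Ccl20, Ccl22, Ccl26, Ccl28, Ccr1, Ccr3, Ccr4, Ccr9, Ccr10, Cxcl3, Cxcl15, Cxcl17, Cxcr1, Cxcr2, Cxcr5 and Xcl1. With no filter on dim probes, Ccr1 and Cxcr2 were also called higher.

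Markers of cells that make or answer chemokines moved in part with these genes, and their part in the results was not tested. Beside the counts below, 16.3% of all genes were higher and 25.8% lower. Without Mutant_175 these shares were 19.7 and 29.7%, and under spike-in scaling 37.2 and 7.44%. Of 16 macrophage and monocyte markers, 9 rose and none fell, with a median log2 change of 0.87, and 13 rose without Mutant_175. Their summed relative signal was 22700 to 23860% in Wild Type and 23010 to 33570% in Mutant arrays, and Mutant_175 was shifted by a median of 0.70 where the others were shifted by 0.83 to 1.23. Itgax, an integrin of dendritic cells and macrophages, was higher by 3.69 (SE 0.51, adjusted p = 0.00122), 1 of 2 dendritic cell markers that rose of 5 tested, or of 3 without Mutant_175. Those 5 summed to 1243 to 1613% in Wild Type arrays, to 751% in Mutant_175 and to 1874 to 4354% in the other Mutant arrays. Itgax passed the filter for brightness only with the Mutant arrays. Of 7 tested T and NK cell markers, 2 rose, Cd3d (0.87, adjusted p = 0.025) and Cd3e (1.11, adjusted p = 0.0311), and the list summed to 697.5 to 920.9% in Wild Type and 995.8 to 1391% in Mutant arrays. The number that rose was 6 of 7 without Mutant_175, 0 without Wild Type_183 or Wild Type_189, and 1 without Wild Type_181, Mutant_182 or Mutant_187. Mutant_175 had the highest sum of this list but a median shift of -0.27, against 0.88 to 1.32 in the other Mutant arrays. The listed markers Cd8a, Klrb1c, Ncr1, Trac, Xcr1 and Clec9a were not tested. Of 9 neutrophil markers none rose and 1 fell, with a median log2 change of 0.84. Their sum was 4855 to 5233% in Wild Type and 3872 to 5363% in Mutant arrays. Such sums are set mostly by the brightest probes of a list. Here that was Csf3r, the marker that fell, at 3514 to 4403% in Wild Type and 2798 to 3208% in Mutant arrays. Without Mutant_175, 3 of the 9 rose, 5 did under spike-in scaling, and with any 1 other array left out 0 or 1 did. The median shift of this list was -0.13 for Mutant_175, where the other Mutant arrays had 1.13 to 1.52. Of 8 fibroblast markers, 7 rose, with a median of 1.20, and the sum was 28650 to 31410% in Wild Type and 55230 to 70970% in Mutant arrays. Endothelial markers gave 1 higher and 2 lower of 8 (median -0.21), and mast cell markers 0 higher and 1 lower of 5 tested (median -1.06). Lymphatic endothelial markers gave 3 higher and 1 lower of 5, and platelet markers 2 higher and 0 lower of 5. Under spike-in scaling no marker of these lists fell, and all 5 platelet markers rose.

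Genes of the wider chemokine machinery were called in both directions. Beside the counts that follow, 16.3% of all genes were higher and 25.8% lower. Among 10 tested decoy receptors and chemokines outside the naming rule, 4 rose and 2 fell, with the smallest p for Mif, a chemokine-like cytokine (0.88, adjusted p = 0.000673), and Ackr4, which clears CCL19 and CCL21 (2.38, adjusted p = 0.000757). Of 26 genes that act below the receptors, 15 rose and none fell, led by Pik3r5, a regulatory subunit of PI3 kinase gamma (2.17, adjusted p = 0.000381), and the kinase gene Ptk2b (2.0, adjusted p = 0.000597). Of 14 NF-kB factors and regulators, 3 rose, a share near that of all genes, and 1 fell. Nfkbie changed by 1.63 (adjusted p = 0.00107) and the kinase gene Chuk by -0.70 (adjusted p = 0.00437). Of 16 tested cytokine and cytokine receptor genes that induce chemokines, 9 rose and 2 fell, led by the receptor genes Il4ra (1.79, adjusted p = 0.000358) and Tnfrsf1b (1.78, adjusted p = 0.000385). Ifng, Il17a and Il1a were not tested.

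Of 13 protease genes whose products trim chemokines, 5 rose and 3 fell, and the matrix metalloprotease genes Mmp2 (2.24, adjusted p = 4.45e-05) and Mmp14 (2.90, adjusted p = 0.000157) had the smallest p. Of 15 genes for heparan sulfate, which holds chemokines on cell surfaces, 5 rose and 1 fell. The list mixes carriers of the chains with enzymes that build or modify them, and the enzyme gene Hs2st1 was among the 5. The carrier gene Gpc1 fell (-1.44, adjusted p = 0.000117), while the carrier gene Gpc6 rose by 1.3 (adjusted p = 0.00273). Of 15 tested adhesion genes of leukocyte entry, 6 rose and 2 fell, with Cd44, a hyaluronan receptor, at 1.86 (adjusted p = 0.000512) and Jam2 at 1.06 (adjusted p = 0.00235). Several of these counts changed when 1 array was left out. The share of all genes called higher was 16.3% with all arrays. It was 12.1, 12.2 and 11.9% without Wild Type_181, Wild Type_183 and Wild Type_189, where 18.6, 17 and 17.4% were lower. Of the 26 genes below the receptors, 9, 10 and 8 rose without Wild Type_181, Wild Type_183 and Wild Type_189. For the heparan sulfate genes 2, 2 and 3 rose with the same arrays left out. Under spike-in scaling 12 did, where 37.2% of all genes were called higher. The NF-kB count of 3 was 2 without any 1 Wild Type array or Mutant_188, 5 without Mutant_175 or Mutant_187, and 8 under spike-in scaling. Of the protease genes, 3 rose without Mutant_182, and 1 fell without Wild Type_181 or Wild Type_189. No adhesion gene fell when any 1 Wild Type array was left out, and 3 fell without Mutant_188. Of the cytokine and receptor genes, 1 fell without any 1 Wild Type array, Mutant_187 or Mutant_188, and of the decoy receptors and other chemokines 1 fell without Wild Type_183 or Wild Type_189.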

How the data were processed

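Total RNA of 7 heart samples was labelled with Cy3 and hybridised to 1 Agilent slide with 1 scan time. The deposited scanner files hold each spot's intensity, background-subtracted and detrended within the array by Agilent Feature Extraction 10.7.3.1, per the file headers; probe positions are on mm9. The authors' deposited table of intensity values was within 0.01 log2 of the scanner value in 99.6% of cells. Flags for background and outliers were used as deposited. From these, log2 intensity minus the array's 75th percentile over 56605 non-control probes was computed. The filter kept 34481 probes flagged above background on 3 or more arrays, and the probe with the highest mean log2 value stood for a gene. Groups were compared with limma 3.58.1 (lmFit and eBayes, R 4.3.3), adjusting p by Benjamini-Hochberg over 22971 genes, threshold 0.05. The fit was also run on simulated data with independent errors and few changed genes. As those data lack the shared shift of Mutant_175, that run does not check the calls made here. Of the genes that fit the naming rule, 1 is not reported here and enters no count of the family; every other tested one is named, with the 2 smallest p of each pathway list. The genes, gene lists and tests were chosen with earlier results of these data known. The number of arrays limits the precision. Alternatives covered scaling, background, filter, probe choice, test and left-out arrays. The highest linear mean, array weights, and leaving out Mutant_175 with Mutant_187, were added after the data were seen.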

Additional observations from a re-analysis of the deposited data

Results flagged for a closer look

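In 4 of the 35 tested genes, 1 of the 4 Mutant arrays lay far from the other 3, and each time it was Mutant_175 and the value was low. Chance flags about 1 in 20 such groups. Ccl8 had a relative signal of 276% in Mutant_175 and 914 to 1150% in the others. Ccl27a had 136% against 243 to 257%. Cxcl1 had 23.9% against 73.3 to 86.4%. Cxcl9 had 0.764% against 26.3 to 45.8%.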

How the results depend on the processing

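Over 20 other settings, 13 of the 21 called genes kept their call and direction wherever they were tested, and Ccl3, Ccl9, Ccl24, Ccr6, Ccr7, Cxcl11, Cxcl16 and Cxcr3 did not. The count of higher genes ran from 14 with a filter over all 7 arrays to 24 under spike-in scaling or without Mutant_175, and from 15 to 24 with 1 array left out. The count of lower genes was 1 with quantile and with normexp normalization, 0 under spike-in scaling, 4 with the filter over all 7 arrays, with a trended robust prior and with array weights, and 2 to 3 with 1 array left out. Over all genes, spike-in scaling gave 8535 higher and 1710 lower, and leaving out 1 array gave 3804 to 6788 lower. Of all calls, 38.7% were higher, 83.3% under spike-in scaling and 49.5% with the percentile taken over the probes detected on every array. The median change of the genes was 1.92 under spike-in scaling and 0.71 with no filter. Under spike-in scaling the changes turned positive for Ccl11 (0.16), Ccl25 (0.26), Cxcl1 (0.44), Cxcl11 (0.041) and Cxcl14 (0.34), as that scaling adds the same amount to every gene. Cxcl12 was -0.009 with median scaling, -0.15 as the mean of its probes, and -0.073 to 0.15 with 1 array left out. Cxcl1 was 0.19 with array weights, 0.33 without Mutant_175 and Mutant_187, and -0.32 to 0.30 with 1 array left out. Ccl11 was 0.061 without those 2 arrays, and -0.78 to 0.28 with 1 left out. Apart from the spike-in shift, the cause was not tested. No paired analysis was possible because the groups share no replicate number. Genes near background in at least 1 group, such as Ccl3, Ccr2, Ccr6, Cxcl2 and Cxcl13, have the least certain sizes.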
